A study of Homo sapiens with 6 samples.

Results

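An R-loop is an RNA strand paired with its DNA template, with the other DNA strand displaced. R-loops form behind RNA polymerase, often over GC-rich promoters and at the ends of genes, and persistent ones can stall replication and damage DNA. DNA-RNA immunoprecipitation sequencing (DRIP-seq) maps them by pulling down hybrids with the S9.6 antibody. TDP-43 is an RNA-binding protein of splicing and transcript stability that is lost from the nucleus in most amyotrophic lateral sclerosis. SH-SY5Y, a human neuroblastoma line, is known to carry an extra copy of chromosome 7 beside gains of parts of other chromosomes.

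The regions described here lie on chromosome 7. The peaks of all 6 deposited lists were merged wherever they touched or overlapped, which gave 75758 regions, 5042 of them on chromosome 7. Regions present in at least 3 lists were kept, which left 2381 on chromosome 7 out of 34843 in the genome. The other autosomes held 31748, and chromosomes 6 and 8, its neighbours in length, held 1138 and 941. The choice used peak calls but no fold enrichment, height or hairpin. A region that passed only through the lists of 1 hairpin had to differ between hairpins, so the counts called below are described beside the same counts elsewhere and support nothing alone.

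The 6 samples were SH-SY5Y cells that had received lentivirus with the hairpin shT2 (3 samples) or shNC3 (3 samples) and had been selected with puromycin. The labels state a TDP-43 knockdown but not which hairpin targets it. The names point to shT2 as the hairpin against TDP-43 and to shNC3 as a negative control, and this reading is used throughout. No label ties the samples of a hairpin to separate infections, so each p-value rests on variation that could be purely technical. With 1 hairpin per target, effects of the hairpin beyond its target were not tested. The lists give no reads, but fragments at each peak summit could be recovered from the fold enrichment and p-value that the peak caller wrote. The shT2 libraries averaged 3.31, 3.46 and 3.08 recovered fragments per base, and the shNC3 libraries 1.79, 1.65 and 1.74. Depth therefore separated the hairpins completely. Markers of noradrenergic neuroblastoma cells carried peaks in all 6 samples at 11 of 13 genes, with a summed covered length of 129 to 134 kb in shT2 samples and 95.9 to 100.1 kb in shNC3 samples. Markers of mesenchymal cells did so at 4 of 12 genes, with 20.3 to 21.0 kb in shT2 samples and 40.0 to 41.5 kb in shNC3 samples; 6 of the 12 had no peak in any shT2 sample and 3 had none in any shNC3 sample. TH, COL1A2, SNAI2 and CAV1 had no peak in any sample.

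Several sequences show what the regions are made of. Of the 799 promoters of coding genes on chromosome 7 in the RefSeq table (GRCh38.p14, 250 bases before to 50 after the start), 306 started inside a region of the set, or 38.3%, against 33.6% of 14302 on the other autosomes. The 253 starts under a region present in all 6 samples had a median GC content of 67.0% and a median CpG ratio (observed over expected) of 0.853. The 493 starts outside the set had 59.3% and 0.590. CpG ratios over 0.6 were found in 88.1% of the first kind and 49.5% of the second, so the regions of chromosome 7 at gene starts were mostly CpG-island promoters, as on the other autosomes (86.4% and 56.5%). Of the 13 starts under a region seen with a single hairpin, 8 belonged to shNC3 (1.00% of the 799, against 1.27% on the other autosomes). The other 5 belonged to shT2 (0.626%, against 0.664%). Their median GC contents were 74.0% for shNC3 and 63.7% for shT2, against 69.0% and 57.7% on the other autosomes. These starts lie in the set only through 1 hairpin, and the contrast is not particular to chromosome 7.

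The promoters below stand for the 3 kinds, with every CpG in capitals, written 5′ to 3′ on the strand of the gene: MCM7 (present in all 6 samples, chr7:100101348-100101647, minus strand), FLNC and PDGFA (shNC3 samples alone, chr7:128830156-128830455, plus strand, and chr7:520177-520476, minus strand), and YAE1 and ZNF727 (shT2 samples alone, chr7:39566154-39566453 and chr7:64045184-64045483, both plus strand).
MCM7: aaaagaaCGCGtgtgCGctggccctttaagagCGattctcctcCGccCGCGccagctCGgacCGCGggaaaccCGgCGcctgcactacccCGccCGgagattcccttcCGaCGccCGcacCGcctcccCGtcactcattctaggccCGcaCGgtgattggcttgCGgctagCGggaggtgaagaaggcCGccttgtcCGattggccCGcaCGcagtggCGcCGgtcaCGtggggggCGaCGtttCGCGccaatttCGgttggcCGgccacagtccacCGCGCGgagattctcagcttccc
FLNC: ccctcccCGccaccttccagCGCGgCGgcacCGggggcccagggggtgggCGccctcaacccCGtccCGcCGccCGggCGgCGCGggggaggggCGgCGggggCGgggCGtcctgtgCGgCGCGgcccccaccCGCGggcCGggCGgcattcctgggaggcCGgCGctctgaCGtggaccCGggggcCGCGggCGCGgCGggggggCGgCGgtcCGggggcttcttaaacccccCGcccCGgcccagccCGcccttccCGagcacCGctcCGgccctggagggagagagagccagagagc
PDGFA: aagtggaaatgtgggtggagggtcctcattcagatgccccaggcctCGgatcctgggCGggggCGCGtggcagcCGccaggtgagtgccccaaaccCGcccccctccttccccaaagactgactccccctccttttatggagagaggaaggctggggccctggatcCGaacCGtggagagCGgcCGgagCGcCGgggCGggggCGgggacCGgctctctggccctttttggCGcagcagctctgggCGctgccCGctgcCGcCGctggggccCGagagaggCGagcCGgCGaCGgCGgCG
YAE1: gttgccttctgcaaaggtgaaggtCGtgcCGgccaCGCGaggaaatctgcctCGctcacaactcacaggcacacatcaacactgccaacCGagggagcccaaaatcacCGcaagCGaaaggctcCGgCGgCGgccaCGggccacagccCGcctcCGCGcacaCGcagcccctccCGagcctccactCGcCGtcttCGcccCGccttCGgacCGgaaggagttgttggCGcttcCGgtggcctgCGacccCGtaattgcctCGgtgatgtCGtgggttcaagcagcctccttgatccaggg
ZNF727: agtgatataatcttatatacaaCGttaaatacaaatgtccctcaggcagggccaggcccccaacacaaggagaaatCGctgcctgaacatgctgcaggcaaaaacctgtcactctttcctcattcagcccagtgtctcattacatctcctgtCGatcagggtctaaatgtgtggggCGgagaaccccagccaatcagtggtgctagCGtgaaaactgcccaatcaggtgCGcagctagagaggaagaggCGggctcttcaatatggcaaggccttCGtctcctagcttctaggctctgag
The FLNC stretch held 42 CpGs at 83.3% GC, the highest GC content of the 13 starts of a single hairpin, and the PDGFA stretch 27 at 71.7%. The MCM7 stretch held 39 at 67.7%. The YAE1 stretch held 29 at 65.3%, and the ZNF727 stretch 8 at 51.0%, the fewest of the 13. A CpG count describes these 300 bases and says nothing on how a region formed.

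Regions of the set also covered 27 of the 82 miRNA genes of chromosome 7 (32.9%), against 407 of 1711 on the other autosomes (23.8%). The 27 genes lay in 24 regions and 26 had a mature sequence in the RefSeq table. The miRNAs under the regions that the results below return to are given with the seed, bases 2 to 8, in capitals.
hsa-miR-106b-5p: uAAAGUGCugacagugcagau
hsa-miR-93-5p: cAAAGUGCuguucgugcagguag
hsa-miR-25-3p: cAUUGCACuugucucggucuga
hsa-miR-590-5p: gAGCUUAUucauaaaagugcag
hsa-miR-6892-3p: uCCCUCUCccaccccuugcag
miR-106b-5p and miR-93-5p share the seed AAAGUGC, while miR-25-3p, made from the same MCM7 intron cluster, has AUUGCAC.

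Chromosome 7 was densely covered. It held 15.0 regions per Mb of gene-bearing span, against 11.7 on the other autosomes, and 2.54 regions per protein-coding gene, against 1.75. Only chromosome 22 had more per gene, at 2.78. The regions of chromosome 7 covered 6.28 Mb in all and ran from 293 to 44591 bp, with a median of 1607 bp, against 1712 bp on the other autosomes. Of the 2381, 1049 were present in all 6 samples, 288 in 5, 358 in 4 and 686 in 3. Regions present in more samples were wider, with a median of 3085 bp in all 6 and 839.5 bp in 3. Width is that of the merged peaks of all lists, so this direction is partly set by the merging. Outside the set, 816 regions lay in 2 lists (median 530.5 bp) and 1845 in 1 list (358 bp). Regions over 10 kb numbered 87 (3.65%), against 1184 on the other autosomes (3.73%).

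The widest region present in all 6 samples lay over INTS1, a subunit of the Integrator complex that cleaves nascent RNA (chr7:1463526-1508116, 44591 bp). The next ones lay over DNAJC30, BUD23 and STX1A in the Williams syndrome interval (33581 bp) and over FSCN1, an actin-bundling gene (28587 bp). Regions over AP5Z1 and RADIL (23678 bp) and over ZSCAN21 and ZNF3 (22586 bp) followed. By summit, the highest was the region of ACTB, the cytoplasmic actin gene, with 391, 377 and 362 fragments at the summit in shT2 samples and 362, 344 and 347 in shNC3 samples. Relative to the mean depth of each library that is 118.1, 109.0 and 117.7 times in shT2 samples and 202, 208 and 199 times in shNC3 samples, so the groups did not overlap on this scale. The regions of FSCN1, INTS1, DBNL with PGAM2, and COPS6 with MCM7, AP4M1 and TAF6 came next. The last of these covers the minichromosome maintenance gene MCM7 and the 3 miRNAs of its intron, and its summit was 105.7, 108.2 and 99.5 times the depth in shT2 samples and 103.4, 96.8 and 103.2 times in shNC3 samples, with overlapping groups.

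Positions along the chromosome were uneven. In 10-Mb windows counted from the end of the short arm, the regions numbered 16 to 464. The first window, which holds INTS1, ACTB, FSCN1 and MAD1L1, had 464 of the 2381, or 19.5%, at 5.33 regions per coding gene. The window from 80 to 90 Mb had 16 at 0.615 per gene. Across the 16 windows the number of regions went with the number of coding genes, with Pearson's r = 0.73 and Spearman's rho = 0.85. This is a description over windows of 1 chromosome in the same 6 libraries.

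The strongest contrast between chromosome 7 and the rest was in the control signal. MACS2, the peak caller named in the submitters' processing notes, sets for each peak a local background that is never lower than the genome-wide mean. The share of peaks within 0.5% of that genome-wide value was 3.97%, 4.06% and 3.84% on chromosome 7 in shT2 samples and 5.43%, 5.52% and 5.58% in shNC3 samples. On the other autosomes it was 41.4% to 42.2% in shT2 samples and 46.5% to 46.9% in shNC3 samples. Chromosome 7 was thus almost without peaks at the genome-wide value, in every sample. The median local background on chromosome 7 was 1.46 to 1.47 times the genome-wide value in shT2 samples and 1.43 times in shNC3 samples, against 1.06 to 1.08 times on the other autosomes in both. With chromosomes 1, 2 and 17 set aside, the median on the remaining 18 autosomes was 1.00 to 1.008 times.

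These 6 values are not 6 measurements of the control. At summits that lists share, the recovered background of 1 list was a fixed multiple of that of another for 87.2% to 100% of summits within a hairpin and for 79.6% to 81.6% between hairpins, within 0.2%. All lists therefore draw on the same control track, and no test over samples was made of the background.

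**Figure D1:**
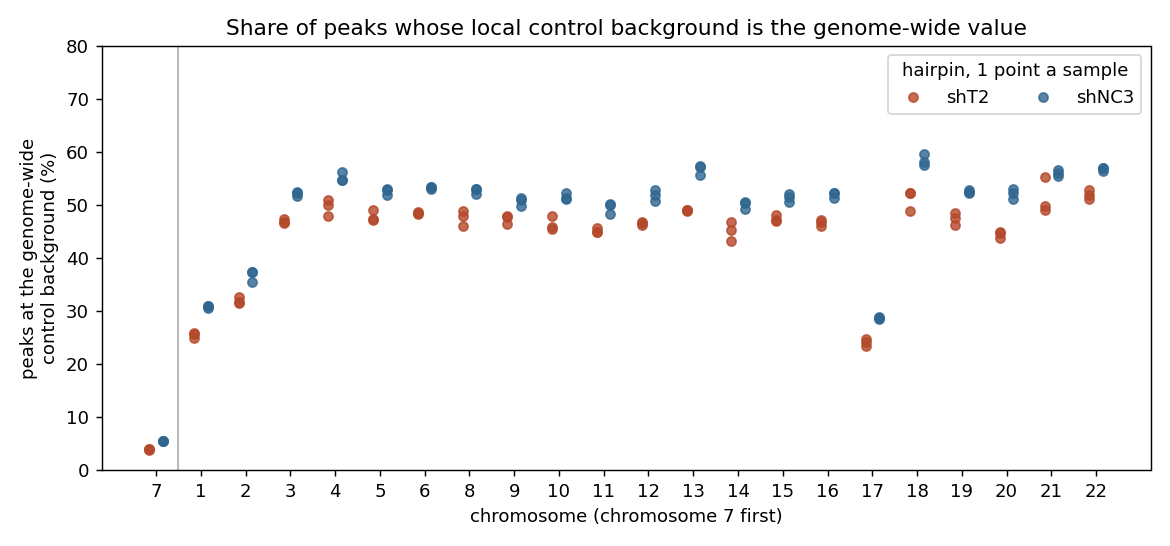
The share of peaks (%, vertical axis) whose local control background equals the genome-wide value, for chromosome 7 and then each other autosome (horizontal axis), with 1 point for each shT2 sample and each shNC3 sample. Chromosome 7 lies between 3.84% and 5.58%, and chromosomes 1, 2 and 17 lie below the remaining autosomes.

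The shift ran along the whole chromosome. Of the 253 autosomal 10-Mb windows with at least 20 peaks in every sample, 33 had less than 25% of peaks at the genome-wide value. All 14 such windows of chromosome 7 were among them, with means of 1.39% to 13.4%, and the median of all other windows was 50.2%. The remaining 19 were 10 windows of chromosome 1, 5 of chromosome 2 and 4 of chromosome 17. On chromosome 1 they lay in the long arm, between 140 and 250 Mb, on chromosome 2 in the first 50 Mb and on chromosome 17 from 50 Mb on. Over the peaks of those windows the samples had median backgrounds of 1.52 to 1.56, 1.46 to 1.54 and 1.52 to 1.56 times the genome-wide value. Gains of 1q, 2p and 17q are known of this line. Copy number itself was not measured here in any other way.

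The recovered fragments at the summits were higher on chromosome 7 too, but by less than the control. Median summit height, in multiples of library depth, was 8.46, 8.39 and 8.78 on chromosome 7 in shT2 samples, against 7.55, 7.23 and 7.48 on the other autosomes. In shNC3 samples it was 10.1, 10.3 and 9.75 on chromosome 7, against 8.38, 9.08 and 8.60. The ratio averaged 1.15 (range 1.12 to 1.20, higher in 6 of 6 samples). A peak is listed only if its summit passes against the local background, which is higher on chromosome 7, so this direction is partly set by the peak calling and no test is given. Fold enrichment, the summit over the background, was lower on chromosome 7, with a mean ratio of 0.954 (range 0.927 to 0.973, lower in 6 of 6). The medians were 4.70, 4.59 and 4.74 in shT2 samples and 5.02, 5.26 and 5.03 in shNC3 samples, against 4.80 to 5.11 and 5.19 to 5.41 on the other autosomes. Since fold enrichment divides by the shared control, its 6 values share that term. Peak width over all peaks did not differ by the test, with a mean ratio of 1.003 (range 0.981 to 1.02, exact two-sided sign-change test over 6 samples, p = 0.625). With peaks of at least 5-fold enrichment alone, peaks were wider on chromosome 7 in 6 of 6 samples, with a mean ratio of 1.10 (range 1.07 to 1.15). That cut asks for a taller summit where the background is higher, as on chromosome 7. The direction may be partly set by the cut, and no test is given. With a −log10 q of at least 4 the ratio was 0.984 (same exact test, p = 0.0625). Exact p-values were not adjusted over the measures compared in this way.

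Peaks were also denser on chromosome 7, at 21.5, 21.8 and 22.1 per Mb in shT2 samples and 18.1, 17.3 and 18.1 in shNC3 samples. The other autosomes had 16.5, 17.1 and 17.1 in shT2 samples and 15.3, 14.4 and 15.2 in shNC3 samples. The ratio averaged 1.24 (range 1.18 to 1.31, higher in 6 of 6 samples, exact sign-change test, p = 0.03125). All 6 lists share 1 control and 1 cell line, so this p-value speaks only of how repeatable the ratio was over these libraries. Chromosomes 1, 16, 17, 19, 20 and 22 held more regions per Mb than chromosome 7, so the density is not particular to it. The part of copy number in the density was not tested.

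**Figure D2:**
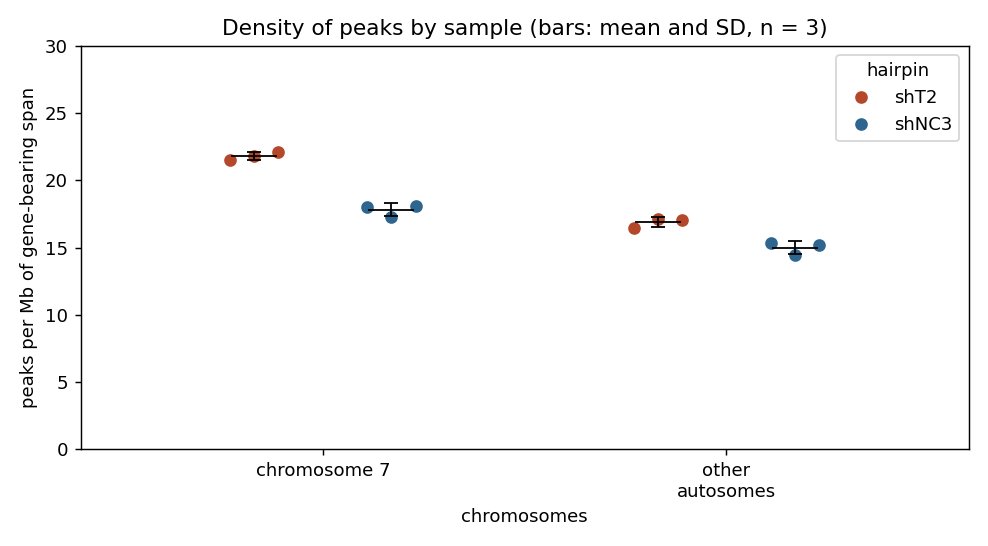
Peaks per Mb of gene-bearing span (vertical axis) for chromosome 7 and the other autosomes, with 1 point a sample and the mean and SD of 3 samples per hairpin. On chromosome 7 the shT2 samples lie at 21.5 to 22.1 and the shNC3 samples at 17.3 to 18.1, each above the same sample's value on the other autosomes.

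The share of autosomal peaks that lay on chromosome 7 was 7.12%, 6.94% and 7.06% in shT2 samples and 6.47%, 6.57% and 6.54% in shNC3 samples. The groups did not overlap, and the means were 7.04% ± 0.0915 and 6.53% ± 0.0553 (SD, n = 3 each; exact two-sided permutation test, p = 0.1, the smallest 3 against 3 can give). The share of covered length was 6.84% ± 0.0880 in shT2 samples and 6.53% ± 0.0701 in shNC3 samples (SD, n = 3 each, exact p = 0.1). Such separation was common: the shares of 19 of the 22 autosomes did not overlap between hairpins for peaks, and chromosome 7 ranked 6 by its ratio of 1.08. As covered length of chromosome 7 over that of chromosomes 6 and 8, the hairpin ratio was 1.015 (1.20 in shT2 samples and 1.18 in shNC3 samples, exact permutation test, p = 0.4), in place of 1.05 over all other autosomes (exact p = 0.1), a measure added after the data were seen.

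Between the hairpins, the covered length of each region was compared with limma on log2(scaled bp + 500), over all 34843 regions at an adjusted p of 0.05. On chromosome 7, 605 regions were higher in shT2 samples (25.4%, against 22.6% of all regions tested and 22.4% on the other autosomes) and 325 lower (13.6%, against 17% of all and 17.2% on the other autosomes). In either direction 930 were called (39.1%, against 39.6% of all and 39.6% on the other autosomes), so the number called was close to the background. The groups did not overlap in 1275 regions (53.5%, against 54.6% of all). The share of lower calls was the lowest of the 22 autosomes, chromosome 20 being next at 14%. The median log2 difference was 0.08 on chromosome 7 and 0.01 on the other autosomes. With peaks of at least 5-fold enrichment alone, 230 regions were higher (18.1%, against 18.2% of all) and 165 lower (12.99%, against 15.1%), out of 1270. Without the requirement of 3 lists, 478 of 5042 regions were higher (9.48%, against 8.46% of all) and 284 lower (5.63%, against 6.65%).

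Regions in all 3 shT2 samples and no shNC3 sample numbered 347 (14.6%, against 12.8% of all regions). Regions in all 3 shNC3 samples and no shT2 sample numbered 100 (4.2%, against 6.23%), the lowest share of the 22 autosomes. Regions in all 6 made up 44.1% (44.7% of all). The absence of a peak means that the threshold was not passed, not that no hybrid was there. Both kinds of region passed the choice only through the hairpin where they are present. The shT2 libraries were also the deeper ones, and the part of depth in these counts was not tested.

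The 5 largest shT2-only regions all lay inside genes. They were in ICA1, a gene of vesicle traffic (chr7:8124271-8129766, 4868, 4633 and 4414 bp covered in shT2 samples), ELAPOR2 (4482, 4677 and 4222 bp), ELMO1, which drives cell engulfment and migration (4253, 4132 and 4282 bp), EXOC4 (3942, 4264 and 3884 bp) and IGF2BP3, an RNA-binding gene (3697, 3646 and 3362 bp). Their summits held 24 to 52 fragments. The 5 largest shNC3-only regions lay at 2 genes. FLNC had them at its start (3049, 3413 and 4232 bp covered in shNC3 samples) and at 2 places in its body (4748, 3625 and 4702 bp, and 4459, 4148 and 4829 bp). PDGFA had them at its start (3951, 3418 and 3351 bp) and just upstream, over PDGFA-DT (4801, 3238 and 3040 bp). Their summits held 19 to 54 fragments in shallower libraries.

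Where a region lay went with its direction, on chromosome 7 as elsewhere. Of 268 regions over a coding gene start, 24 were higher in shT2 samples (8.96%) and 75 lower (28.0%). Of 1594 within a gene, over no start or coding end of a gene in the promoter table, 447 were higher (28.0%) and 174 lower (10.9%). That table held 799 of the 938 coding genes of chromosome 7. Regions over the starts or ends of other genes therefore count as within a gene. The regions of ACTB and FSCN1 were counted so. Regions over a gene end numbered 108, with 26 higher (24.1%, against 22.1% on the other autosomes) and 21 lower (19.4%, against 18.9%). On the other autosomes 8.63% of start regions were higher and 28.1% lower. Of regions within genes there, 24.2% were higher and 15.1% lower, so lower calls within genes were rarer on chromosome 7. On chromosome 7, 268 of the 447 higher calls within genes were shT2-only regions and 66 of the 174 lower calls shNC3-only regions. Their direction was set by the choice of regions. Among regions in all 6 samples, 82 of 589 within genes were higher (13.9%, against 12.3% on the other autosomes) and 75 lower (12.7%, against 14.9%). Of 219 such start regions, 11 were higher (5.02%, against 5.50%) and 53 lower (24.2%, against 26.4%). Intergenic regions made up 16% of the set, against 10.4% on the other autosomes, and 104 of the 381 were higher (27.3%, against 29.3%) and 47 lower (12.3%, against 14.9%).

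**Figure D3:**
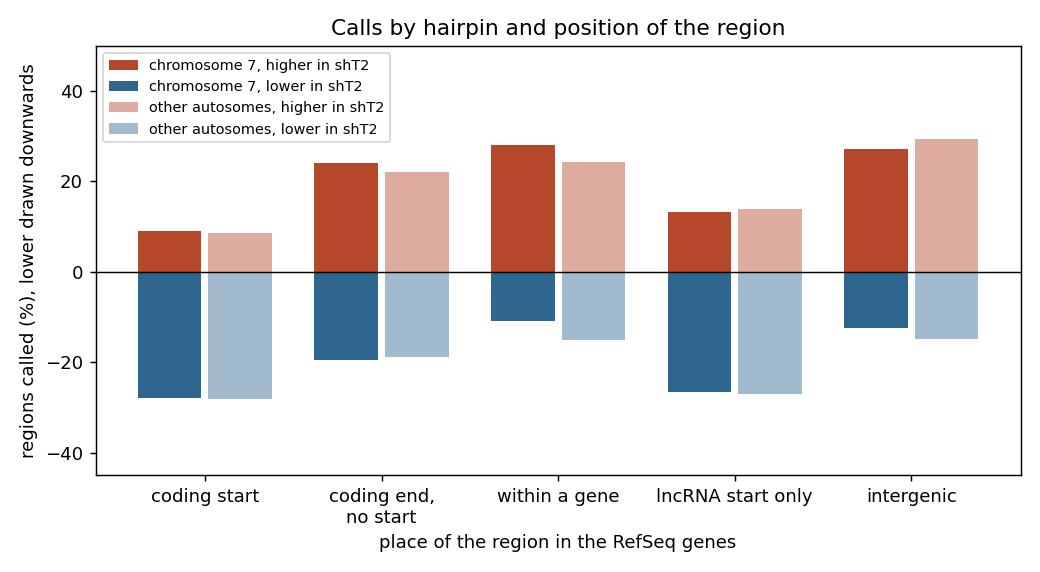
The share of regions called higher (upwards) or lower (downwards) in shT2 samples (%, vertical axis) by position in the RefSeq genes (horizontal axis), for chromosome 7 in full colour and the other autosomes in pale colour. Start regions lean downwards, with 28.0% lower on chromosome 7, and regions within genes lean upwards, with 28.0% higher. Of the 447 higher within genes on chromosome 7, 268 were shT2-only regions. Within genes on chromosome 7, 13.9% of regions present in all 6 samples were higher and 12.7% lower. Starts and ends are those of genes in the promoter table.

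Along the chromosome, the windows from 20 to 30, 30 to 40 and 130 to 140 Mb leaned most to shT2 among those with over 50 regions, with median log2 differences of 0.39, 0.51 and 0.38. In the window from 130 to 140 Mb, which holds EXOC4 and CHCHD3, 63 of 159 regions were higher and 22 lower, and 52 were shT2-only. Of all regions tested, 22.6% were higher, 17% lower and 12.8% shT2-only. The first window had 87 higher and 69 lower of 464, both smaller shares than over all regions, with a median of -0.01.

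**Figure D4:**
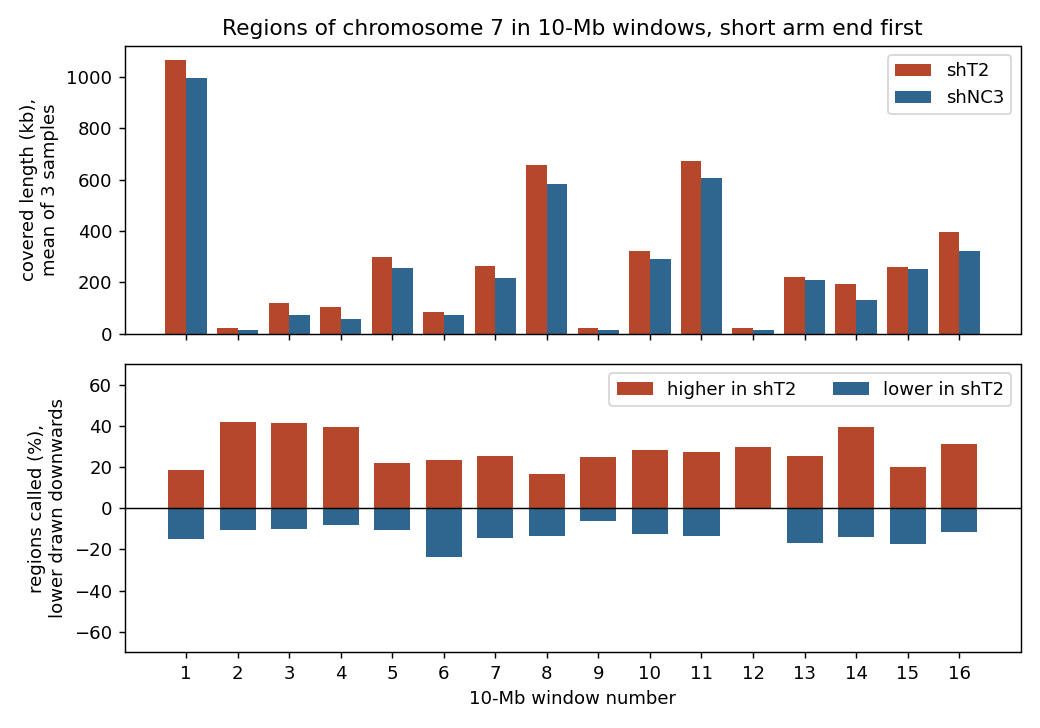
Covered length in kb as deposited (upper panel, mean of 3 samples for shT2 and for shNC3) and the share of regions called (%, lower panel, higher upwards and lower downwards) in the 16 windows of 10 Mb, numbered from the end of the short arm. The first window holds 1067 kb in shT2 samples and 994 kb in shNC3 samples, and windows 3, 4 and 14 have 33 of 80, 34 of 86 and 63 of 159 regions higher. Of all regions tested, 22.6% were higher.

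By summit height, falls outnumbered rises. In the 1049 regions present in all 6 samples, height relative to depth was higher in shT2 samples in 134 (12.8%, against 10.9% of all such regions) and lower in 332 (31.6%, against 35.8%), or 466 in either direction (44.4%, against 46.7% of all and 46.9% on the other autosomes), a comparison added after the data were seen. The median log2 difference was -0.15 on chromosome 7 and -0.22 on the other autosomes. Beyond division by depth, heights were not scaled between samples. Over all peaks of the other autosomes, median height was 7.23 to 7.55 in shT2 samples and 8.38 to 9.08 in shNC3 samples. The whole scale thus ran lower in shT2 samples, whose libraries were deeper. The part of depth in these counts was not tested. At coding starts 108 of 219 were lower (49.3%, against 48.6% on the other autosomes) and 25 higher (11.4%, against 9.20%). Within genes, with starts and ends taken as above, 140 of 589 were lower (23.8%, against 31.0%) and 80 higher (13.6%, against 10.7%). The largest falls were at the start of PLXNA4, with heights of 5.13, 6.36 and 5.53 in shT2 samples and 38.0, 37.5 and 40.7 in shNC3 samples, and at HSPB1, a small heat-shock gene, with 11.8, 9.25 and 13 in shT2 samples and 52.5, 55.7 and 41.9 in shNC3 samples. The largest rises were within GTF2I, a transcription factor gene of the Williams syndrome interval, with 26.3, 24.0 and 30.2 in shT2 samples and 7.26, 6.66 and 8.60 in shNC3 samples, and within TRA2A, a splicing regulator, with 32.6, 30.7 and 36.1 in shT2 samples and 13.97, 13.9 and 10.3 in shNC3 samples. The groups did not overlap at any of the 4. GTF2I has near-identical copies nearby, so its reads may be shared with them. The limma log2 differences were -2.78 (SE 0.15, adjusted p = 6.11e-14), -2.14 (SE 0.14, adjusted p = 2.05e-12), 1.84 (SE 0.16, adjusted p = 5.07e-10) and 1.39 (SE 0.14, adjusted p = 7.72e-09) in that order.

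Summed per gene, with 2 kb on each side, 559 of the 938 protein-coding genes of chromosome 7 had a peak in at least 3 samples and were tested among 11771 in the genome. In shT2 samples 164 were higher (29.3%, against 24.2% of all genes tested), 143 lower (25.6%, against 27.2%) and 252 did not pass. In either direction that was 307 genes (54.9%, against 51.3% of all and 51.3% on the other autosomes), and the groups did not overlap at 380 genes (68.0%, against 65.0% of all). Without scaling the lists to equal covered length the split was 189 higher and 91 lower, since that setting moves the median log2 difference on chromosome 7 to 0.11, against -0.03. The genes that were higher had a median length of 65.3 kb and those that were lower 20.0 kb. On the other autosomes the medians were 49.6 and 20.9 kb. The 2 kb flanks can count a peak for neighbouring genes too.

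EXOC4, a subunit of the exocyst that tethers vesicles to the membrane, had the largest rise. Its scaled covered length was 19.9, 18.6 and 16.2 kb in shT2 samples and 0, 0.605 and 0 kb in shNC3 samples (log2 difference on the pseudocount scale 4.84, SE 0.31, limma adjusted p = 4.22e-05). SLC35B4, a nucleotide sugar transporter in the same window, had 8.01, 7.15 and 6.44 kb in shT2 samples and 0.360, 0.351 and 0 kb in shNC3 samples (3.42, SE 0.25, limma adjusted p = 7.22e-05). ADCYAP1R1, the receptor for the neuropeptide PACAP, had 6.46, 5.98 and 6.80 kb in shT2 samples and 0, 0 and 0.717 kb in shNC3 samples (3.36, SE 0.36, limma adjusted p = 0.00031). In all 3 the lowest shT2 sample stood far above the highest shNC3 sample. ZNF727, whose promoter is printed above, had 5.51, 4.28 and 3.61 kb in shT2 samples and no peak in any shNC3 sample. ICA1 had 15.8, 16.3 and 13.3 kb in shT2 samples and 1.89, 1.79 and 1.65 kb in shNC3 samples. RNF32, LRRC61, GALNT11 (an enzyme that starts O-linked glycans), AKAP9 (a kinase anchor of the Golgi and centrosome), ZP3, ELAPOR2 and NUP42 (a nuclear pore gene) completed the 12, with log2 differences of 2.49 to 2.91.

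FLNC, an actin cross-linker of muscle, had the largest fall. It had 0, 1.46 and 1.43 kb in shT2 samples and 22.7, 23.6 and 25.9 kb in shNC3 samples (-4.31, SE 0.49, limma adjusted p = 0.000424). PDGFA, a platelet-derived growth factor, had 0, 0.262 and 0 kb in shT2 samples and 10.7, 7.89 and 10.3 kb in shNC3 samples (-4.13, SE 0.23, limma adjusted p = 2.64e-05). At both genes the whole gene was close to free of peaks in shT2 samples. EPHA1, an ephrin receptor, had 0.427, 0 and 0.457 kb in shT2 samples and 6.09, 7.26 and 6.52 kb in shNC3 samples. PLXNA4, a semaphorin receptor of growing axons, had 1.79, 4.34 and 3.48 kb in shT2 samples and 18.7, 20.8 and 20.0 kb in shNC3 samples. UPP1 (a uridine phosphorylase), OSBPL3 and BMPER (a BMP-binding protein) had no peak in any shT2 sample. ZNF467, ZC3HAV1 (an antiviral RNA-binding gene), SGCE and ATP6V0E2 (a proton pump subunit) had log2 differences of -2.74, -1.99, -1.97 and -1.88.

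**Figure D5:**
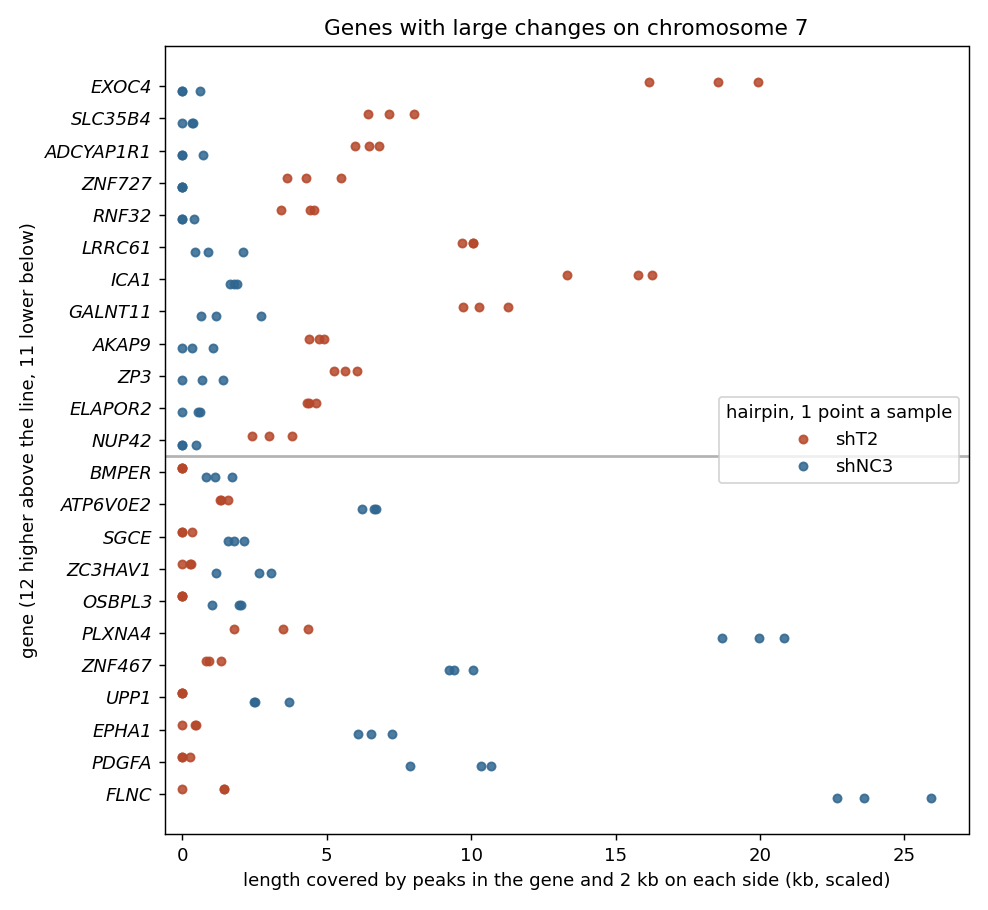
Scaled length covered by peaks in each gene with 2 kb on each side (kb, horizontal axis) for the 12 genes with the largest rise (above the line) and 11 genes with large falls (below it), with 1 point for each shT2 sample and each shNC3 sample. The groups do not overlap at any gene drawn, which the choice of genes required.

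Among genes of chromatin and transcription, 15 of the 18 tested were higher in shT2 samples and 3 lower (median log2 difference 0.63, against -0.03 over the 559 genes of chromosome 7). Of all genes tested 24.2% were higher and 27.2% lower, and on chromosome 7 29.3% and 25.6%, the shares against which this list and those below are to be read. All lists were chosen with earlier results of these data known, so their counts describe and do not test. TRIM24, a reader of histone marks, had 14.9, 13.6 and 13.3 kb in shT2 samples and 2.77, 4.48 and 2.41 kb in shNC3 samples. KMT2C, a histone H3 lysine methyltransferase, had 9.85, 9.23 and 11.9 kb in shT2 samples and 4.75, 4.05 and 4.57 kb in shNC3 samples. ACTR3B and PHF14 were 1.66 and 1.61 higher on the log2 scale. The list counts ACTR3B though it encodes an actin-related protein of the cytoskeleton. EZH2, the catalytic subunit of Polycomb complex PRC2, was higher by 0.60. TAF6, FOXK1 and ZNHIT1 were the 3 that fell, at -0.22, -0.18 and -0.52. Very long genes went the same way at 7 of 12 tested, with 1 lower. Among them were CUX1, at 69.7, 69.3 and 68.2 kb in shT2 samples and 44.1, 49.0 and 41.0 kb in shNC3 samples, and AUTS2, at 23.6, 29.0 and 24.2 kb in shT2 samples and 13.6, 14.2 and 14.7 kb in shNC3 samples. CNTNAP2, a neurexin-family gene, was the exception at -1.37.

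All 30 genes of RNA processing and export on the chromosome were tested, and 12 were higher, 7 lower and 11 without a call (median 0.14), against 29.3% higher and 25.6% lower over the chromosome. RBM28, a nucleolar RNA-binding gene, had 12.7, 13.03 and 13.8 kb in shT2 samples and 3.37, 4.57 and 3.08 kb in shNC3 samples. RBM33, PUS7 (a pseudouridine synthase) and LUC7L2 (a splicing factor) were higher by 1.58, 1.05 and 0.77. ZC3HAV1 was the largest of the 7 that fell, at -1.99. Of 18 mitochondrial and proteasome genes, 9 were higher and 2 lower, led by SSBP1, the mitochondrial single-strand DNA-binding protein, at 2.19, and CHCHD3, of the inner membrane organising complex, at 1.91. PSMG3 fell, at -0.98.

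Mesenchymal and matrix genes had more falls than rises. Of 16 with a test, 10 were lower in shT2 samples and 1 higher, and 5 had no call (median -0.75), against 25.6% lower and 29.3% higher over the chromosome. ELN, the elastin gene, had 18.3, 18.5 and 16.8 kb in shT2 samples and 34.5, 36.9 and 34.2 kb in shNC3 samples. LIMK1, an actin-regulating kinase, was lower by -0.41 on the log2 scale. IGFBP3, also among the mesenchymal markers above, was the 1 that rose, at 0.41, and ACTB, at -0.15, did not pass. The summed covered length of the mesenchymal markers across the genome was lower in shT2 samples too, as given above. COL1A1 carried most of that gap: without it, a setting added after the data were seen, the sum was 20.0 to 21.0 kb in shT2 samples and 26.7 to 28.1 kb in shNC3 samples. IGFBP3 was higher in shT2 samples, VIM had 6935 bp in all 6 samples and TWIST1 overlapped between hairpins. The part of such cells in these falls was not tested. In these bulk samples fewer cells with R-loops at a gene and fewer R-loops per cell cannot be told apart.

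In the Williams syndrome interval at 7q11.23, whose loss of a copy causes that disorder, 4 of 22 tested genes were higher and 11 lower, and 7 had no call (median -0.20), against 29.3% higher and 25.6% lower over the chromosome. BAZ1B, a chromatin remodeller, had 27.3, 26.6 and 26.7 kb in shT2 samples and 19.4, 16.4 and 19.0 kb in shNC3 samples. CLIP2, a microtubule linker, had 55.3, 52.3 and 54.7 kb in shT2 samples and 66.2, 67.8 and 65.4 kb in shNC3 samples. STX1A, a syntaxin of synaptic vesicle fusion, had 11.5, 10.8 and 11.7 kb in shT2 samples and 16.9, 16.7 and 16.9 kb in shNC3 samples. Neighbouring genes of the interval thus went opposite ways.

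The remaining lists are small and are given as counts beside the 29.3% higher and 25.6% lower of the chromosome. Of 11 receptor and signalling oncogenes tested, 2 were higher and 5 lower. BRAF, a kinase of the MAPK pathway, had 7.65, 6.63 and 6.42 kb in shT2 samples and 1.14, 0.791 and 1.51 kb in shNC3 samples. EGFR had no peak in shT2 samples and 1.54, 1.29 and 0.775 kb in shNC3 samples, part of it at its start. CREB3L2 was lower by -0.76, which turned to 0.35 with peaks of at least 5-fold enrichment alone. Among genes of axons and synapses, 3 of 17 were higher and 6 lower, with KCNH2, a potassium channel, at 13.98, 14.7 and 13.8 kb in shT2 samples and 27.2, 28.2 and 28.0 kb in shNC3 samples. CHRM2, a muscarinic receptor, was higher by 0.96. Zinc finger genes were close to the chromosome as a whole, with 11 of 34 higher and 10 lower (median -0.09). All 7 imprinted genes tested passed, 3 higher (DDC, DLX5 and MEST) and 4 lower (SGCE, PEG10, TFPI2 and COPG2). Of 14 genes of replication and repair, 2 were higher (ORC5 and SEM1) and 3 lower, and MCM7 was among the 9 with no call, at -0.15. Of 6 Wnt pathway genes, 2 were lower and none higher at the adjusted threshold. The 14 genes of the HOXA cluster and its neighbours had no peak in at least 3 samples, so none was tested.

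Of the 27 miRNA genes under a region, 3 lay under regions that were higher, 11 under regions that were lower and 13 under regions that did not pass. The shares, 11.1% higher and 40.7% lower, were close to the 10.1% and 37.8% of the 407 miRNA genes under regions on the other autosomes. The region of MIR25, MIR93 and MIR106B covered 19923, 19693 and 19692 bp in shT2 samples and 21444, 21587 and 21587 bp in shNC3 samples (-0.27, SE 0.054, limma adjusted p = 0.00974), while its summit overlapped between hairpins, as given above. The region of MIR590, inside EIF4H (chr7:74190268-74194022), covered 2832, 2803 and 3755 bp in shT2 samples and 728, 944 and 1069 bp in shNC3 samples (1.24, SE 0.18, limma adjusted p = 0.00382). The region of MIR6892, over FAM131B, ZYX and EPHA1 (chr7:143379011-143393634), covered 4885, 5740 and 6258 bp in shT2 samples and 14302, 14260 and 14609 bp in shNC3 samples (-1.44, SE 0.095, limma adjusted p = 0.000412). The groups did not overlap in any of the 3. A peak over a miRNA gene says nothing on the level of the miRNA.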

How the data were processed

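DRIP-seq of SH-SY5Y cells was analysed from 6 peak lists, 1 per sample and 3 per hairpin. Bowtie2 2.4.4, MACS2 2.2.6 and SAMtools are named in the submitters' processing notes, with the build hg38, the build of RefSeq GRCh38.p14. Each sample has a list of its own. In the deposited lists each peak has a score, a fold enrichment at the summit (a ratio), a −log10 p and a −log10 q, and a summit offset (another number), as MACS2 writes them. The lowest −log10 q was 2.00 to 2.02.

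The whole number of fragments at each summit and the local background were recovered from fold enrichment and −log10 p, within 0.001 for 99.996% to 100% of peaks. Depth, 1.65 to 3.46 fragments per base, is the genome-wide background in whole fragments, and height is the summit's fragments over depth.

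The members and gene lists were chosen with earlier results of these data known. Covered length per region or gene was scaled to equal total peak length between samples, 500 bp were added, and log2 values were tested with limma 3.58.1 (R 4.3.3, trend and robust, Benjamini-Hochberg over all features). On simulated data, log2 changes of 1 were recovered in 42.5% of 200 changed regions (34843 regions) and 93.5% of 200 changed genes (11771 genes). Changes of 0.5 were recovered in 0.5% and 55.5%. The changed features were drawn from those above the median covered length, so the rates do not hold for less covered ones. Shares and chromosome ratios were tested with exact permutation or sign-change tests. The planned test of the control background over samples was not run, since all lists share 1 control, and that of summit height is not given, since peaks are called against that background. Named genes were the 12 most changed by log2 difference each way, among called genes with no overlap of groups, and up to 4 per list with the smallest p. A gene that the rule selects is not reported here. Named regions were the 5 widest in all 6 samples, the 5 with most covered length for each hairpin alone and the 5 with the highest summits. Genes named beside these, the 10 regions ranked by height, and promoters and miRNAs were chosen after their values were seen. Replicate numbers did not pair the samples: deviations of same-numbered samples correlated at -0.029 to -0.013. Other tools were Python 3.11.15 with numpy 2.4.6, pandas 2.3.3 and scipy 1.17.1.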

Additional observations from a re-analysis of the deposited data

How the results depend on the processing

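Most counts stayed within 1.5 times of the reported ones under no scaling, a pseudocount of 100 bp, a replicate block, a −log10 q of at least 4, equal list sizes, other merging or presence rules and gene bodies without flanks. With the replicate block, 594 regions were higher and 275 lower, and 169 genes were higher and 127 lower. The exceptions were peaks of at least 5-fold enrichment (230 regions higher, 165 lower, 395 in all; 93 genes higher, 93 lower, 186 in all), genes lower without scaling (91), and summit height in place of covered length (134 higher and 466 in all). Leaving out each sample in turn gave 492 to 584 regions higher, 248 to 291 lower and 740 to 875 in all, and 141 to 156 genes higher, 109 to 137 lower and 250 to 289 in all.

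The hairpin ratio of the share of covered length was 1.04 to 1.05 and that of peaks 1.07 to 1.09 with a sample left out, and 1.015 and 1.02 at 5-fold enrichment. The width ratio was 1.10 at 5-fold enrichment, 0.984 at −log10 q of at least 4 and 1.00 to 1.008 with a sample left out. The height ratio was 1.11 to 1.18 under all settings and 1.14 to 1.16 with a sample left out. The background ratio was 1.35, and 1.38 at 5-fold enrichment, 1.38 at the stricter q, 1.25 as a mean, 1.44 without chromosomes 1, 2 and 17 and 1.35 to 1.36 with a sample left out. The causes of these changes were not tested.

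Of 855 refits of 62 named genes, 824 kept direction and call, 30 lost the call (most often NUDT1, CAMK2B and RFC2) and 1 reversed: CREB3L2, to 0.35 at 5-fold enrichment. Genes left with a peak in fewer than 3 samples had no refit and are not counted. This befell some named genes at 5-fold enrichment and without flanks. Depth limits what an absent peak means, most of all in shNC3 samples.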

Other observations

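Other small RNA genes of chromosome 7 were covered unevenly. Regions of the set lay over 6 of 22 tRNA genes (27.3%), against 36 of 417 on the other autosomes (8.63%), and over 9 of 57 snoRNA genes (15.8%), against 198 of 1093 (18.1%). Genes of 1 cluster share regions, so these counts are not independent. Within the set, 8 coding genes had peaks in shT2 samples and none in any shNC3 sample (1.43% of those tested, against 2.88% on the other autosomes), and 10 had the reverse (1.79%, against 3.22%).

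The regions of the set that were in all 6 samples had a median summit of 44 fragments in shT2 samples and 26 in shNC3 samples, against 40 and 23 on the other autosomes. The shT2-only regions had 26 fragments, against 23 on the other autosomes, and the shNC3-only regions 17, against 15.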
